A study of Mus musculus with 24 samples.

Results

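Kidneys of male mice were compared with kidneys of female mice, all collected in the active period of the day, gene by gene and without the genes of the sex chromosomes. The genes taken were those whose normalized count averaged 10 or more across the 24 libraries of the series, 17333 in number, less 525 on the X chromosome, 8 on the Y chromosome and 335 whose chromosome was not found in the reference annotation. This left 16465 genes of the 56748 identifiers in the deposited table, among them 18 genes of the mitochondrial genome and 2698 predicted genes known by model identifiers. The comparison rests on 12 libraries, 6 of the group labelled female_active and 6 of the group labelled male_active, each of poly A RNA from kidney. The other 12 libraries, 6 female_inactive and 6 male_inactive, were used to set the active-period differences beside those of the inactive period. No genotype, drug or diet is recorded in the labels, and the only factors named are sex and the active or inactive period. The sources used here do not give strain, age, the clock hour of collection or whether each library is a separate animal, so p-values measure the spread between these libraries.

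The kidney of the mouse is known for differences between the sexes, and the proximal tubule, the segment that reclaims most of the filtrate and secretes organic acids, bases and drugs, carries much of that difference. Its cells hold the androgen receptor, and testosterone is known to raise the size of the tubule and the levels of many of its enzymes and carriers in male mice. Oestrogen, growth hormone with its pulsed or steady release, and prolactin are further known sources of sex-dependent expression. The gene of the androgen receptor itself lies on the X chromosome and is therefore not among the genes described.

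The 12 libraries of the active period held 32.3 to 39.3 M reads, with a mean of 34.3 M in each sex (SD 2.60 M in females and 1.66 M in males, n = 6 each). The authors' scaling gave them different totals, with a mean of 31.3 ± 0.91 M normalized counts in females and 37.9 ± 1.17 M in males. Scaling every library to an equal total lowered the median log2 difference of all genes by 0.27, and where this turns the balance of a gene group or moves its counts by over 1.5 times it is said beside that group. The recorded sex held in all 12 libraries, since female libraries had 25439.7 or more counts of Xist, made from the silenced X, against no more than 15.998 in any male, and the Y-linked Ddx3y had no count in females and 1379 or more in males. Genes of the mitochondrial genome took 16.3% ± 0.38 of the signal in females and 14.1% ± 1.13 in males. Replicate 2 of the active males stood farthest from its group, with the lowest mitochondrial share (12.1%). In bulk RNA, fewer cells of a type and less RNA per cell cannot be told apart.

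The sexes differed in most of the genes tested. On log2 of the normalized count plus 1, limma called 10034 of 16465 genes at an adjusted p under 0.05 (60.9%), 5039 higher in males (30.6%) and 4995 lower in males (30.3%). Most differences were small: the median called gene differed 1.43-fold, and 5676 of the called genes (56.6%) differed by less than 1.5-fold. At least 2-fold differences numbered 697 higher (4.23%) and 938 lower in males (5.7%). The balance turned with size, since at 4-fold or more 200 genes were higher and 126 lower in males, and at 32-fold or more 31 were higher and 11 lower. In 6038 genes (36.7%) the 6 male and the 6 female libraries did not overlap. Lack of overlap in a gene named below is therefore common, the more so in genes named for a small p or after their values were seen. The share of genes called grew with level, from 36.02% of genes with a mean of 10 to 100 counts to 84.0% of those at 10000 or more. Scaled to equal totals, 2552 genes were higher and 8377 lower in males, and scaled to the upper quartile 4288 were higher and 5873 lower. The near-even totals thus hold for the authors' scaling and for TMM scaling (5074 and 4968), and not for equal totals or the upper quartile. Among called genes under 1.5-fold, 3166 were higher and 2510 lower in males on the authors' scaling.

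**Figure D1:**
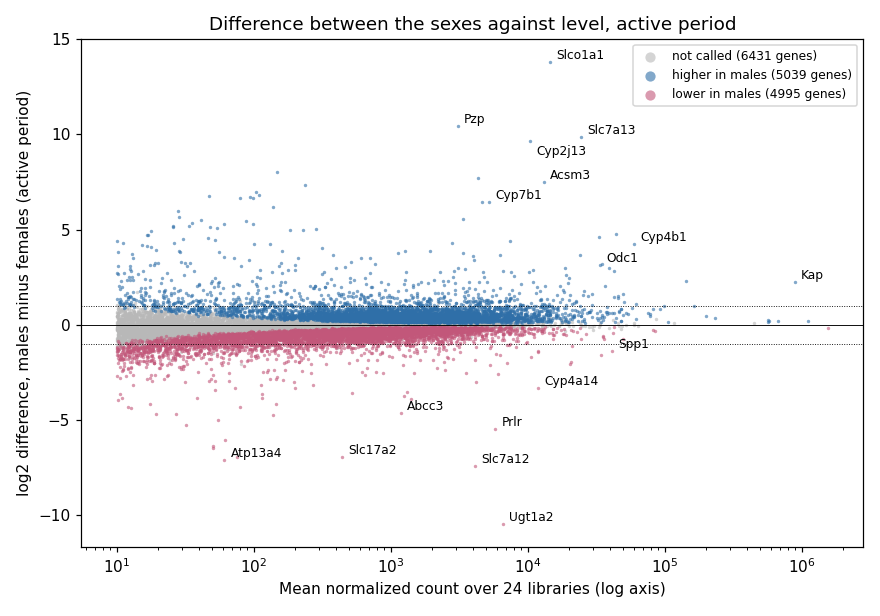
Each point is 1 of the 16465 genes, with its mean normalized count over the 24 libraries on a log axis and its log2 difference between males and females of the active period on the linear axis; dotted lines mark a 2-fold difference. Called genes lie on both sides at every level, and the farthest points are Slco1a1 at 13.80 and Ugt1a2 at -10.46.

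Genes near 0 in one sex and abundant in the other led both lists. The largest rise in males was that of Slco1a1, a carrier of bile acids, steroid conjugates and other organic anions. Its lowest, median and highest normalized counts were 0, 0.975 and 3.89 in females and 24743, 29491 and 31627 in males, a log2 difference of 13.80 ± 0.44 (SE, adjusted p = 1.98e-16). Every female library was thus close to 0, and no male library came near them. Pzp, a protease inhibitor of the alpha-macroglobulin family, went from 0, 2.81 and 19.4 in females to 5639, 5935 and 6148 in males, with a log2 difference of 10.44 ± 0.49 (adjusted p = 1.29e-13). Slc7a13, an acidic amino acid carrier of the straight proximal tubule, was at 15.6, 58.5 and 86.2 in females against 43297, 48672 and 53841 in males (log2 9.85 ± 0.33, adjusted p = 3.89e-16). For Cyp2j13, a cytochrome P450 of the family that makes epoxides from arachidonic acid, the counts were 5.33, 36.01 and 56.8 in females against 19451, 22229 and 26482 in males (log2 9.65 ± 0.42, adjusted p = 3.31e-14). The male libraries of these 4 genes lay within narrow ranges, while the few female counts were scattered.

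Others of the 10 largest rises were Ugt2b37, which couples glucuronic acid to steroids and drugs, Acsm3, an acyl-CoA synthetase of medium-chain fatty acids, and Apoh, a plasma protein that binds phospholipids. Ugt2b37 had counts of 17.6, 47.2 and 64.8 in females and 7627, 9026 and 10363 in males (log2 7.72 ± 0.22). Acsm3 had 97.7, 122 and 179 in females against 20220.3, 25034 and 28965 in males (log2 7.51 ± 0.17), and Apoh 0, 1.70 and 10.7 in females against 403, 465 and 570.2 in males (log2 7.34 ± 0.47). Mpped1, a phosphoesterase, Neurog2, a transcription factor of neural precursors, and Cntnap5a, a cell adhesion protein, were low genes found almost only in males. Neurog2 had no read in any active female library and 94.4 to 137 counts in males, at least 237-fold higher against a floor of 3 reads over the female group. Mpped1 had 2 reads over the 6 female libraries and 262 to 359 counts in males, a ratio of 1026 with a 95% counting interval of 284 to 8471. Cntnap5a was at 0 to 3.91 in females against 127 to 198 in males.

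Androgen receptors and the STAT factors of growth hormone and prolactin bind known DNA letters. Some genes with large differences were taken as examples, though Ugt1a2 and Slc7a12, not shown, differed more than Slc17a2. The sequences before the start of these examples are shown and do not stand for all such genes. They are the 250 bases before the start in RefSeq on build GRCm38.p6, read 5′ to 3′ on the strand of the gene. Capitals mark AGAACA, the core of the element that steroid receptors of the androgen and glucocorticoid type bind, or TTCNNNGAA, the site of STAT factors. Pzp (chr6:128526721-128526970, minus strand), Apoh (chr11:108395047-108395296, plus strand) and Slco1a1 (chr6:141946963-141947212, minus strand) were higher in males, and Slc17a2 (chr13:23806743-23806992, plus strand) was lower.
Pzp: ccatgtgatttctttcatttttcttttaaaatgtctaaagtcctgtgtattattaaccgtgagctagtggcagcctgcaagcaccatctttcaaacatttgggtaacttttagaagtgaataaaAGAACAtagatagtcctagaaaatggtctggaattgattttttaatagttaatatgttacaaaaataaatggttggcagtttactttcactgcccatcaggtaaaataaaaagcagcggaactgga
Apoh: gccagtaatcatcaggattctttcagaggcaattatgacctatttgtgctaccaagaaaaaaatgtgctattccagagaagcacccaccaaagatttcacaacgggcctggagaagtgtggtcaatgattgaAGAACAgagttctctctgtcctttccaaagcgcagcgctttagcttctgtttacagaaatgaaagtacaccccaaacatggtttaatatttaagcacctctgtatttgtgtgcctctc
Slco1a1: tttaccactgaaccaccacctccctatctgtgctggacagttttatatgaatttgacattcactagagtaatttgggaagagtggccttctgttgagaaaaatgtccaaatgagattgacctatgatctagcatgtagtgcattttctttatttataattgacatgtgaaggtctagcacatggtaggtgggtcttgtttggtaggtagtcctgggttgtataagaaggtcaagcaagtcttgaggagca
Slc17a2: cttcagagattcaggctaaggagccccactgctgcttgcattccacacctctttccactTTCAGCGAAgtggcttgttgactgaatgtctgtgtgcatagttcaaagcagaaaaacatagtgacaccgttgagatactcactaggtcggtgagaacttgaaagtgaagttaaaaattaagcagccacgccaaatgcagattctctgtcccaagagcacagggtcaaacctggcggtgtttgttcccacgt
The AGAACA of Pzp begins 126 bases and that of Apoh 118 bases before the start, the site of Slc17a2 begins 191 bases before it, and none of these letters was in the window of Slco1a1. Searched on both strands from 250 bases before to 50 after the start, AGAACA was in 12.8% of the 11673 genes with a RefSeq promoter, in 20% of the 135 at least 4-fold higher in males and in 16.7% of the 78 at least 4-fold lower. TTCNNNGAA was in 7.13% of all, 7.41% of the first set and 10.3% of the second. The full palindromic element was in 1 promoter of all and in none of either set. A match is a description of letters and not of a bound site.

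In females the largest difference was that of Ugt1a2, another glucuronosyltransferase. Its lowest, median and highest counts were 9037, 13858 and 14323 in females and 2.42, 10.9 and 11.4 in males (log2 -10.46 ± 0.38, adjusted p = 1.25e-15). Slc7a12, an amino acid carrier, was at 6510.3, 9757 and 12687 in females and 19.3, 51.7 and 150.4 in males (log2 -7.44 ± 0.40, adjusted p = 1.51e-12). These 2 genes were abundant in each female library and rare in each male one. Slc17a2, of the family of phosphate and organic anion carriers, had 598, 849 and 1138 in females against 2.27, 6.61 and 15.3 in males (log2 -6.94 ± 0.33, adjusted p = 2.82e-15). Abcc3, an exporter of bile acids and glucuronides, had 1324, 2046 and 2965 in females against 70.95, 81.4 and 87.99 in males (log2 -4.65 ± 0.19, adjusted p = 5.33e-16). The groups were apart in both genes, as the rule that named them required, with the male values of Abcc3 close together and the female ones spread over more than 2-fold. Slc22a29, an organic anion carrier, was at 1992 to 2735 in females against 133 to 207 in males (log2 -3.91 ± 0.13).

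Among low genes, Atp13a4, a cation-transporting ATPase, had 121 to 164 counts in females and no read in any active male library, at least 247-fold lower in males against a floor of 3 reads. Tmprss6, a protease that lowers the iron hormone hepcidin, was at 76.4 to 151 in females with 2 reads over the male libraries, a ratio of 301 with a counting interval of 83.4 to 2489. Clic6, a chloride channel protein, was at 172 to 436 against 2.27 to 27.996. Myh1, a myosin heavy chain of fast muscle, was at 66.004 to 151 against 0 to 8.85. Myh1 is itself 1 of 6 skeletal muscle markers, of which Mylpf, a myosin light chain and the only other one tested, was not called (log2 -0.09 ± 0.23, adjusted p = 0.743), while Myh4 was at 0 in both sexes and Ckm at 0 in males.

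**Figure D2:**
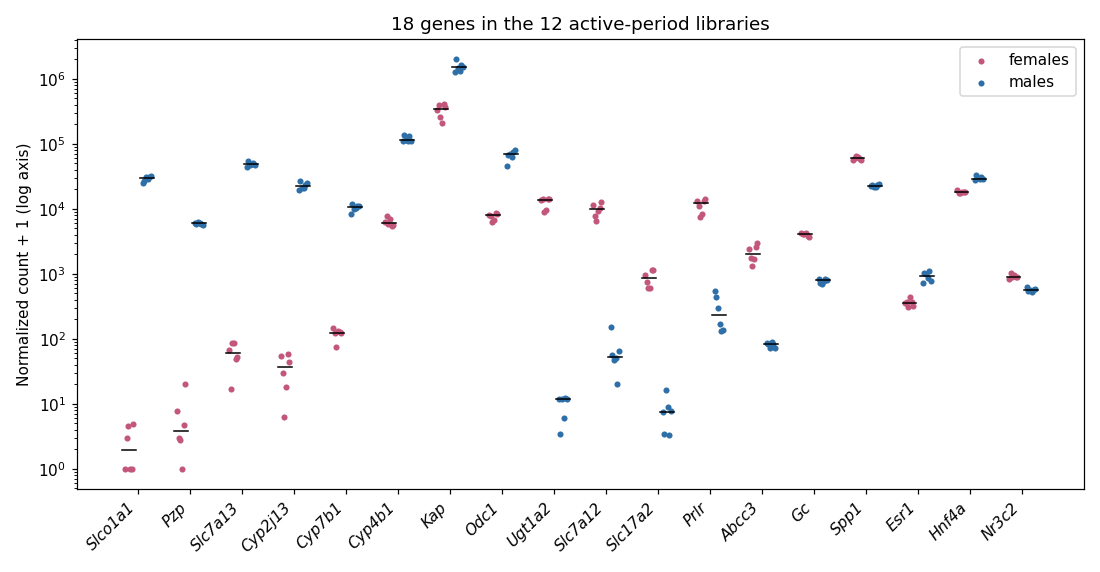
Normalized count plus 1 on a log axis for 18 genes, 1 point per active-period library (6 females, 6 males) and a bar at each median. The sexes do not overlap in any of the 18 genes, but many were named by a rule that required this, and 36.7% of all genes do not overlap. The gap is widest for Slco1a1, Pzp, Slc7a13 and Ugt1a2.

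Measured in counts and not in folds, the largest rise was that of Kap, the kidney androgen-regulated protein of the proximal tubule. Its lowest, median and highest values were 0.207 M, 0.348 M and 0.406 M in females and 1.26 M, 1.51 M and 1.99 M in males (log2 2.26 ± 0.16, adjusted p = 7.48e-11). The groups did not overlap, which the rule that named the largest rises required. Acsm2, another medium-chain acyl-CoA synthetase, rose from 43667, 48277 and 58611 in females to 220122, 239567 and 245700.0 in males (log2 2.28 ± 0.06, adjusted p = 5.76e-24). Cyp4b1, a P450 of fatty acid and xenobiotic oxidation, was at 5345, 6094 and 7791 in females against 110287, 113673 and 136328 in males (log2 4.24 ± 0.10, adjusted p = 1.14e-20). Slc27a2, a fatty acid carrier and very long-chain acyl-CoA synthetase, and Cyp2e1, the ethanol-oxidising P450, completed the 5 largest rises at log2 1.001 and 4.76. Genes at least 2-fold higher in males, chosen by this contrast, together held 4.73% ± 0.43 of the signal of females and 14.4% ± 1.01 of that of males. The largest falls in counts were those of Spp1, the secreted phosphoprotein osteopontin, Aadat, a kynurenine and aminoadipate aminotransferase, Scd1, the desaturase that makes oleate, Slc12a3, the thiazide-sensitive salt carrier, and Hao2, a peroxisomal hydroxyacid oxidase. Spp1 was at 55673, 60208 and 64914 in females and 21482, 22439.6 and 24008 in males (log2 -1.41 ± 0.05, adjusted p = 1.73e-19). Scd1 was at 25388, 35276 and 42484 in females against 5607, 8327 and 16563 in males (log2 -1.96 ± 0.21), and Hao2 at 22872, 27097 and 30985 in females against 5138, 5939.7 and 8826 in males (log2 -2.07 ± 0.12). The males lay below all females in each of these genes, as the rule that named them required.

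Genes already known for sex-biased expression were taken as a list, though one written with earlier results of these libraries known. All 15 genes known to be male-biased in kidney or liver were higher in males, with a median log2 difference of 3.13 beside -0.04 over all genes. Besides those above they included Cyp7b1, which hydroxylates oxysterols and neurosteroids (74.6, 123 and 145 in females, 8430.1, 10633 and 11839 in males, log2 6.46 ± 0.11), Cyp4a12a, which makes the vasoconstrictor lipid HETE from arachidonic acid (log2 6.43 ± 0.33), and Odc1, the first enzyme of polyamine synthesis (6226, 7899 and 8714 in females against 46132, 68461 and 79257 in males, log2 3.13 ± 0.13). Of 6 genes listed here as female-biased, 4 were lower in males. They were Prlr, Slc7a12, Cyp4a14 (log2 -3.33 ± 0.51) and Akr1c18, which inactivates progesterone (log2 -2.12 ± 0.47, adjusted p = 5.49e-04). The other 2 were higher in males, against the direction under which they were listed. Cyp2a4, a steroid hydroxylase, was at 6259, 8204 and 9685 in females and 17285, 19782 and 26377 in males (log2 1.37 ± 0.15, adjusted p = 4.81e-08), with no overlap. Slc22a7, an organic anion carrier, was at 2319, 4614 and 5111 in females against 4564, 6511 and 7507 in males (log2 0.71 ± 0.19, adjusted p = 0.00332), with overlap.

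Receptors of hormones differed between the sexes in both directions. Of 24 hormone and nuclear receptors, 10 were higher in males, 11 lower and 3 not called, with a median of -0.03. The share called was 87.5%, beside 60.9% of all genes. At equal totals 6 were higher and 11 lower. The largest difference was that of Prlr, the prolactin receptor, at 7463, 12225 and 14337 in females and 129.6, 230.3 and 550.1 in males (log2 -5.49 ± 0.37, adjusted p = 4.58e-11). The male values of Prlr spread more than 4-fold and still lay far below every female one. Esr1, the oestrogen receptor alpha, was higher in males, at 305, 357 and 443 in females and 712, 939 and 1096 in males (log2 1.35 ± 0.11, adjusted p = 2.33e-11). Nr1h4, the bile acid receptor FXR, rose to 3959, 5223 and 7224 from 1884, 2333 and 2634 (log2 1.21 ± 0.12, adjusted p = 5.08e-09). Hnf4a, a factor that sets proximal tubule and liver identity, was at 17214, 18181 and 19722 in females and 27535, 29057 and 33613 in males (log2 0.72 ± 0.05, adjusted p = 1.48e-12). None of these 4 genes overlapped between the sexes.

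Smaller rises in males were those of the retinoic acid receptor Rara (log2 0.86 ± 0.09), the sterol receptor Nr1h3 (0.56 ± 0.11), Igf1r (0.48 ± 0.07), Ghr, the growth hormone receptor (0.40 ± 0.08), and Vdr, the vitamin D receptor (0.38 ± 0.08), the last 2 not called at equal totals. Thrb, a thyroid hormone receptor, was called at 0.16 ± 0.07 (adjusted p = 0.0443) but turned to -0.11 at equal totals. Nor was it called with upper quartile scaling (0.09), with no filter, in the active groups alone, with a plain variance prior, with the title number as a block, or without replicate 3 or 5 of the females or 2, 3, 4 or 6 of the males (log2 0.11 to 0.16). Lower in males were Rarb (-1.46 ± 0.23), Nr2f1 (-1.12 ± 0.23) and Nr2f2 (-0.23 ± 0.06), the xenobiotic sensor Nr1i2 (-0.96 ± 0.13), Pgr, the progesterone receptor (-0.91 ± 0.22), Nr3c2, the mineralocorticoid receptor (-0.68 ± 0.06), and Nr3c1, the glucocorticoid receptor (-0.37 ± 0.06). Nr3c2 was at 836, 895 and 1021 in females and 525, 567 and 633 in males (adjusted p = 7.92e-11). Ppara, the fatty acid receptor, was at -0.39 ± 0.11, Insr at -0.34 ± 0.05 and Thra at -0.19 ± 0.07 on the log2 scale, all lower in males, the last not called without replicate 2 of the males. Gper1 (-0.33 ± 0.27, adjusted p = 0.285) and Pparg (0.32 ± 0.22, adjusted p = 0.212) were among those not called.

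Downstream of growth hormone and prolactin, a list held 20 genes of the JAK-STAT pathway, its feedback inhibitors, insulin-like growth factors and factors tied to sex-dependent liver expression. Of these, 3 were higher and 8 lower in males (median -0.35), which became 3 and 15 at equal totals. The share called was 55%, below the 60.9% of all genes. Stat3 (-0.09 ± 0.06, adjusted p = 0.195), Stat5a (0.14 ± 0.15, adjusted p = 0.446) and Stat5b (-0.11 ± 0.09, adjusted p = 0.289) were not called. Bcl6, a repressor that opposes STAT5, was at 446, 1117 and 1423 in females and 1559, 3258 and 4614 in males (log2 1.65 ± 0.39, adjusted p = 0.00109). Of the feedback inhibitors tested, Cish and Socs2 were lower in males and Socs3 was not called (-0.39 ± 0.24, adjusted p = 0.152). Cish was at 652, 1013 and 1527 in females against 187, 315 and 992 in males (log2 -1.54 ± 0.38, adjusted p = 0.00156), and Socs2 at 603, 1650.1 and 3696 in females against 353, 621 and 1073 in males (log2 -1.32 ± 0.37, adjusted p = 0.00432). The sexes did not overlap in Bcl6 and overlapped in Cish and Socs2. Igfals, which carries the growth factor in blood, fell in males (log2 -1.11 ± 0.18), and Igfbp4 rose (0.76 ± 0.08).

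Enzymes that make and break steroids were more often higher in males, 16 of 27 against 7 lower (median 0.46). Of all genes 30.6% were higher and 30.3% lower. Srd5a2, which turns testosterone into dihydrotestosterone, was at 113, 124 and 155 in females and 385, 492 and 676 in males (log2 1.97 ± 0.17, adjusted p = 5.46e-11). Hsd17b2, which inactivates testosterone and oestradiol, was at 66.5, 106 and 154 in females against 612, 902 and 1074 in males (log2 3.02 ± 0.17, adjusted p = 2.16e-14). Hsd17b11, of the same family, was at 2394, 2872 and 2985 in females against 16229.9, 19242 and 21585 in males (log2 2.78 ± 0.07), and Hsd11b1, which regenerates active glucocorticoid, rose by 1.57 ± 0.12. In each of these 4 genes the male libraries lay above all female ones.

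The families of drug and lipid metabolism held members at both ends. Of 53 cytochrome P450 genes, 17 were higher and 17 lower in males, which became 15 and 22 at equal totals. The share called, 64.2%, was near the 60.9% of all genes. At least 2-fold differences numbered 13 higher and 9 lower, where 4.23% and 5.7% of all genes were that far apart. On the male side Cyp2e1 was at 2269, 3240.2 and 4522 in females and 81505, 86414 and 91726 in males (log2 4.76 ± 0.13), and Cyp2b10, a drug-inducible P450, at 0, 0.917 and 5.83 in females against 39.3, 66.8 and 127 in males (log2 5.21 ± 0.43). On the female side Cyp4a14, an omega-hydroxylase of fatty acids, was at 13225, 23055 and 24608 in females against 771, 1823 and 5371 in males. Of 14 glucuronosyltransferases 9 were higher and 5 lower (median 0.89), with Ugt8a higher at 3.74 ± 0.10 and Ugt2b34 lower at -1.97 ± 0.07 in males. Ugt1a1, which conjugates bilirubin, was at 44.4 to 89.7 in females against 0 to 6.55 in males, and it shares exons with Ugt1a2, so reads of the 2 may have been split between them.

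Carboxylesterases, which hydrolyse ester drugs and lipids, had 6 of 10 higher and 1 lower in males (median 1.04). Ces1f was at 2518, 3906 and 4219 in females and 40778, 43770.3 and 49897 in males (log2 3.68 ± 0.13), Ces2c rose by 2.76 ± 0.15 and Ces2h by 2.49 ± 0.26. Of 16 aldo-keto reductases 8 were higher and 4 lower, with Akr7a5 at log2 1.26 ± 0.08 and Akr1c19 at -1.19 ± 0.06, and of 21 aldehyde dehydrogenases 12 and 5, led by Aldh3a2 at 1.23 ± 0.05. Adh1, an alcohol and retinol dehydrogenase, was at 2736, 2919 and 3081 in females against 18298, 22238 and 24891 in males (log2 2.90 ± 0.07). Of 22 glutathione transferases 8 were higher and 6 lower (63.6% called, near the 60.9% of all genes), turning to 7 and 11 at equal totals. Gstp1 was higher at 1.29 ± 0.06 and Gsta4 lower at -2.54 ± 0.10 in males. Sulphotransferases had 1 of 7 higher and 2 lower, or 0 and 3 at equal totals. Members of these families are alike in sequence, and the sources used here do not say how reads that fit several of them were counted.

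Carriers of organic ions on the proximal tubule were split in the same way. Of 24 SLC22 genes, 11 were higher and 6 lower in males (median 0.38), which became 10 and 10 at equal totals. The share called was 70.8%, beside 60.9% of all genes. Slc22a6, the organic anion transporter OAT1 of the blood side, was at 4464, 7856 and 9351 in females and 25307, 32757 and 35609.6 in males (log2 2.21 ± 0.17, adjusted p = 2.65e-10). Slc22a2, the organic cation transporter OCT2, rose by 1.67 ± 0.10, and Slc22a12, the urate exchanger URAT1, was at 6893, 9291 and 11079.5 in females against 24161, 30339 and 33634 in males (log2 1.72 ± 0.11). Both lay above every female library. Slc22a30 was at 405, 707 and 969 in females and 12968, 14648 and 14971 in males (log2 4.42 ± 0.18) and Slc22a28 rose by 3.68 ± 0.12, while Slc22a29, close to them in sequence, fell by 3.91. Of 8 SLCO carriers 4 were higher and 3 lower, and of 7 SLC17 carriers 4 and 1, led by Slc17a1, a urate and phosphate carrier (log2 1.21 ± 0.07).

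SLC7 amino acid carriers, SLC5 carriers and ABC carriers were more often lower than higher in males, where 30.3% of all genes were lower and 30.6% higher. Of 12 SLC7 genes 3 were higher and 8 lower (median -0.55), with 1 higher at equal totals, and Slc7a8, a neutral amino acid exchanger of the basolateral membrane, was at log2 -0.85 ± 0.06. Of 13 SLC6 carriers of neutral amino acids and related compounds 3 were higher and 4 lower, which became 2 and 7 at equal totals. The share of them called was 53.8%, below the 60.9% of all genes. Of 34 ABC transporters 10 were higher and 17 lower (median -0.34), which became 5 and 19 at equal totals. The 2 genes of the drug pump P-glycoprotein were both lower in males: Abcb1a was at 445, 504 and 535 in females and 78.5, 129.5 and 141 in males (log2 -2.07 ± 0.15), and Abcb1b at 876, 1191 and 1301 in females against 141, 175 and 267 in males (log2 -2.62 ± 0.18). Abcc4, which exports urate and cyclic nucleotides, was at 3730.1, 3903 and 4117 in females against 918, 1149 and 1551 in males (log2 -1.75 ± 0.10). No male library reached the lowest female one in these 3 genes. Of 10 SLC5 sodium-coupled carriers 2 were higher and 6 lower, or 1 and 7 at equal totals, and 2 carriers of lactate differed in direction, Slc5a8 at 2.14 ± 0.12 and Slc5a12 at -1.07 ± 0.11. Of 12 glucose transport genes 2 were higher and 6 lower, or 1 and 9 at equal totals, with Slc2a1 at -0.51 ± 0.06.

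**Figure D3:**
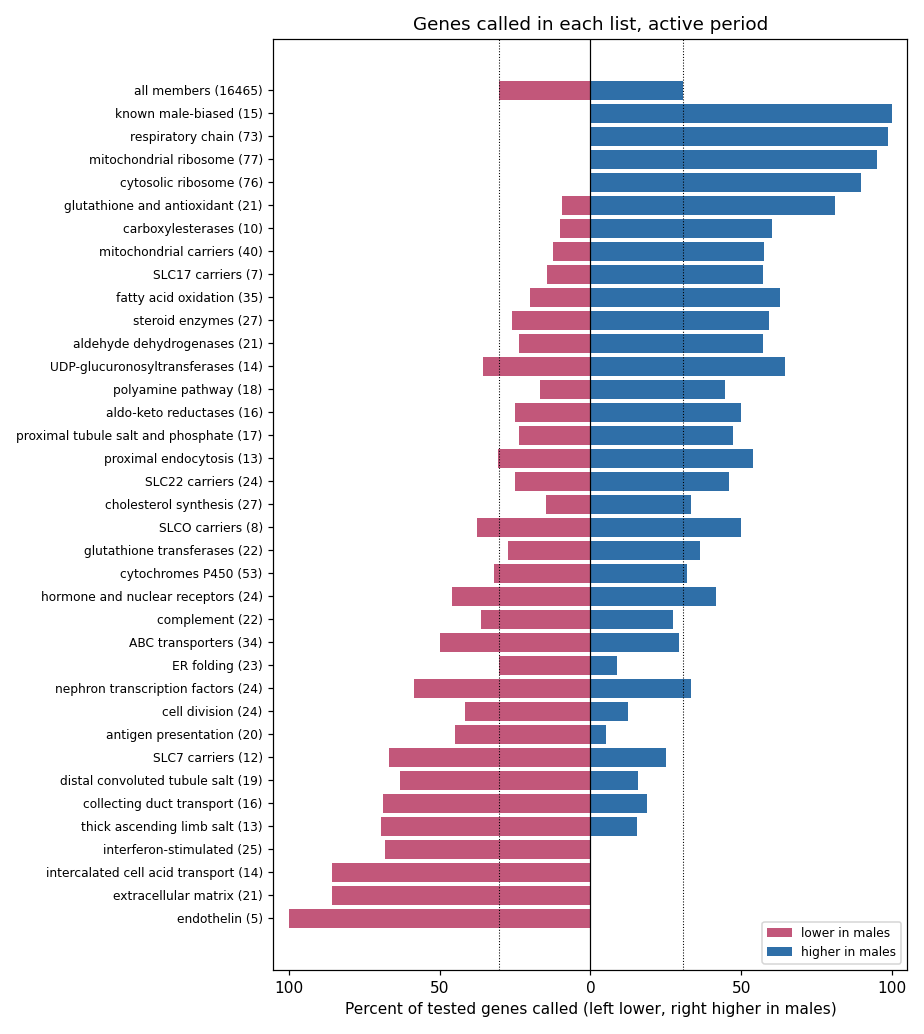
Bars give, for each gene list with its number of tested genes in brackets, the percentage called lower in males (left) and higher in males (right); dotted lines mark the shares over all 16465 genes, 30.3% and 30.6%. Lists of the respiratory chain and the ribosomes reach far to the right, and those of endothelin, matrix and intercalated cells far to the left.

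Salt-handling genes of the proximal tubule and of the segments after it lay on different sides. Of 17 proximal genes of sodium, phosphate, bicarbonate and water uptake, 8 were higher and 4 lower in males, with a median of 0.26 that became -0.02 at equal totals. Slc34a1, the main phosphate carrier, was at 55298, 66979 and 79151 in females and 110012, 118241 and 128055 in males (log2 0.83 ± 0.06, adjusted p = 1.02e-12). Slc9a3r1, the scaffold that holds it at the membrane, rose by 1.04 ± 0.06, and Car4, a carbonic anhydrase of the brush border, by 1.30 ± 0.09. The sexes were apart in all 3. Of 13 genes of protein uptake 7 were higher and 4 lower, turning to 4 and 8 at equal totals. Its 2 large receptors were slightly lower in males with overlap, Lrp2 (megalin) at -0.29 ± 0.07 (adjusted p = 0.00122) and Cubn (cubilin) at -0.21 ± 0.06 (adjusted p = 0.00255), while the folate receptor Folr1 rose by 0.75 ± 0.06 and the receptor-associated Lrpap1 by 0.80 ± 0.08.

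In the thick ascending limb 9 of 13 salt genes were lower and 2 higher in males (median -0.34). Slc12a1, the furosemide-sensitive carrier NKCC2, was at 41706, 45793 and 48453 in females and 23729, 27069 and 30920.1 in males (log2 -0.76 ± 0.06, adjusted p = 4.21e-12). Kcnj1, the potassium channel that recycles potassium for it, was lower in males at -0.56 ± 0.05 and Casr, the calcium-sensing receptor, at -0.92 ± 0.09, and neither overlapped between the sexes. Umod, the urinary protein uromodulin, was at 41203, 50865 and 58178 in females against 30295, 38302 and 44853 in males, with overlap (log2 -0.43 ± 0.11, adjusted p = 0.00231). Of 19 genes of the distal convoluted tubule and its WNK kinases, 12 were lower and 3 higher (median -0.42), or 17 and 1 at equal totals. Slc12a3, the salt carrier NCC, was at 54996, 60762 and 67632 in females against 34748, 36312 and 38888 in males (log2 -0.75 ± 0.06, adjusted p = 1.36e-12), apart in all libraries. Kcnj10, the basolateral potassium channel of the segment, was lower in males at -0.64 ± 0.05 and Atp2b4, a calcium pump, at -0.98 ± 0.08.

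Of 16 genes of collecting duct transport 11 were lower and 3 higher in males (median -0.32), or 12 and 1 at equal totals. Sgk1, the kinase induced by aldosterone and glucocorticoid, was at 11280.4, 15486 and 18970.1 in females and 2366, 4114 and 4759 in males (log2 -2.02 ± 0.29, adjusted p = 4.60e-06). Scnn1a, the alpha subunit of the epithelial sodium channel, was lower in males at -0.48 ± 0.06, and Prss8, a protease that activates the channel, was higher at 0.50 ± 0.05. Aqp2, the water channel set by vasopressin, was at 1693, 2998 and 3694 in females against 3009, 4344 and 4906 in males, with overlap, a log2 difference of 0.60 ± 0.20 that was not called at equal totals. Of 14 genes of acid and bicarbonate transport in intercalated cells, 12 were lower in males and none higher (median -0.40). They included the proton pump subunits Atp6v0d2 (-0.82 ± 0.07) and Atp6v1b1 (-0.46 ± 0.06) and the anion exchanger Slc4a9 (-0.47 ± 0.07).

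Genes of blood pressure signals were mixed. All 5 tested endothelin genes were lower in males (median -0.48), with the vascular receptor Ednra at 175, 199.8 and 222 in females and 62.8, 85.4 and 125 in males (log2 -1.17 ± 0.16) and Ednrb, the other receptor, at -0.77 ± 0.14. Of 10 renin-angiotensin genes 4 were higher and 3 lower, turning to 2 and 6 at equal totals. Ace, the angiotensin-converting enzyme, was at 2318, 2866 and 3649.5 in females against 5907, 7197 and 8057 in males (log2 1.284 ± 0.11, adjusted p = 2.56e-10). Ren1, renin, was lower in males at 2461, 3251 and 4335 in females against 1507, 1787 and 2011 in males (log2 -0.85 ± 0.14, adjusted p = 2.11e-05), and Mme, neprilysin, at 9029, 10942 and 12449.6 in females against 5509, 5815 and 6811 in males (log2 -0.86 ± 0.09). The sexes did not overlap in these 3 genes. Agt, the precursor of angiotensin, was not called (-0.06 ± 0.09, adjusted p = 0.584).

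Mitochondrial and ribosomal protein genes rose together by small amounts. Of 73 nuclear genes of the respiratory chain 72 were higher in males (median log2 0.49), among them Ndufv1 (6083, 6194 and 6502 in females, 9119, 10325 and 12073 in males, log2 0.72 ± 0.05), Ndufa10 (0.68 ± 0.06) and Uqcrq, of complex III (0.86 ± 0.09), while at equal totals 50 were higher and 3 lower. Of 77 proteins of the mitochondrial ribosome 73 were higher (median 0.48), led by Mrpl20, Mrpl16 and Mrpl2 at 0.88, 0.88 and 0.75, and at equal totals 46 were higher and 5 lower. Of 76 cytosolic ribosomal proteins 68 were higher (median 0.29), but at equal totals 12 were higher and 5 lower with a median of 0.02, and 25 had the same call in the inactive period. Of 40 mitochondrial carriers 23 were higher and 5 lower, turning to 13 and 16 at equal totals, with Slc25a39, a carrier of glutathione, at 1.05 ± 0.07 and Slc25a1, the citrate carrier, at 0.84 ± 0.06. Of 18 genes of the mitochondrial genome itself 9 were higher and 5 lower in males on the same scaling (median 0.17), while their share of each library's signal, which does not depend on the scaling, was lower in males as given above, and its part in these results was not tested.

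Fatty acid oxidation leaned to males, with 22 of 35 genes higher and 7 lower (median 0.45), or 18 and 11 at equal totals. Acads, the short-chain acyl-CoA dehydrogenase, was at 2374, 2536 and 2682 in females and 5635, 6582 and 8765 in males (log2 1.42 ± 0.07, adjusted p = 9.42e-17), and Hadh, of the same pathway, rose by 0.75 ± 0.05. All male libraries were above all female ones in both genes. In cholesterol synthesis 9 of 27 were higher and 4 lower, turning to 5 and 13 at equal totals and to 8 lower without replicate 1 of the females. The share called was 48.1%, below the 60.9% of all genes. Hmgcs1, which feeds the pathway, rose by 1.12 ± 0.08, Mvd by 1.22 ± 0.08 and Acat2 by 0.88 ± 0.06.

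Of 18 glycolysis genes 9 were higher and 4 lower, turning to 6 and 8 at equal totals, with Ldha, lactate dehydrogenase A, at 0.98 ± 0.05, Tpi1 at 0.85 ± 0.06 and Gapdh at 0.70 ± 0.06. Of 11 gluconeogenesis genes 4 were higher and 3 lower (63.6% called, near the 60.9% of all genes), turning to 3 and 4 at equal totals. Pcx, pyruvate carboxylase, was at 1.04 ± 0.06 and Fbp2 at -0.99 ± 0.10. Of 18 genes of polyamines and arginine 8 were higher and 3 lower (61.1% called, near the 60.9% of all genes), with a median of 0.25 that became -0.03 at equal totals. Its ends were Odc1 and Arg2, the mitochondrial arginase, which was at 322, 481 and 580.4 in females and 58.2, 81.1 and 96.2 in males (log2 -2.51 ± 0.17). Oaz1, the antizyme that sends the Odc1 protein to degradation, rose by 0.81 ± 0.06. Glutathione and antioxidant genes were higher in males in 17 of 21 cases and lower in 2 (median 0.57). Ggt1, the brush border enzyme that splits glutathione, was at 12862, 15590.4 and 15987 in females against 36278, 44846 and 59980.4 in males (log2 1.63 ± 0.09), and Gss, Gpx4, Gpx1 and Prdx1 rose by 1.30 ± 0.06, 1.10 ± 0.07, 1.04 ± 0.10 and 0.93 ± 0.05.

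Among 6 vitamin D genes 2 were higher and 2 lower, with a median of 0.22 that became -0.05 at equal totals with 1 higher. Gc, the vitamin D binding protein, was at 3713, 4139 and 4254 in females and 703, 789 and 841 in males (log2 -2.38 ± 0.08, adjusted p = 1.63e-19), far apart. Cyp24a1, which degrades the active hormone, was at 1814, 2485 and 3880.0 in females against 887, 1619 and 1848 in males, with overlap (log2 -0.77 ± 0.27, adjusted p = 0.0183). It was not called without replicate 3 of the females (-0.64) or replicate 4 of the males (-0.62).

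Interferon, antigen presentation and matrix genes were more often lower than higher in males. Of 25 interferon-stimulated genes 17 were lower in males and none higher (median -0.43). Gbp3, a guanylate-binding protein of cell defence, was at 1319, 2509.9 and 3408 in females and 294, 396 and 508 in males (log2 -2.55 ± 0.22), Gbp7 was lower at -1.22 ± 0.11 and Rsad2, viperin, at -0.95 ± 0.10. In none of the 3 did the groups overlap. Of 20 antigen presentation genes 9 were lower and 1 higher (50% called, beside 60.9% of all genes), and 18 were lower at equal totals. Among the lower ones were B2m at -0.40 ± 0.08, Nlrc5, the activator of class I genes, at -0.76 ± 0.13 and H2-Q6 at -0.97 ± 0.15. Of 22 complement genes 8 were lower and 6 higher, near the shares over all genes (30.3% and 30.6%), the former with C3 (786, 1092 and 1688 in females against 421, 496 and 593 in males, log2 -1.11 ± 0.15) and Cfi (-1.13 ± 0.13), the latter with C8g (1.54 ± 0.13) and Cd55 (0.95 ± 0.10). Beside these, the summed macrophage markers were at 3610 to 4513 in females against 3394 to 5103 in males, and the summed T cell markers at 253 to 454 and 156 to 243, and their part in these results was not tested.

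Of 21 matrix genes 18 were lower in males and none higher (median -0.49). Fbn1, fibrillin, was at 451, 502 and 523 in females and 238, 247 and 371 in males (log2 -0.84 ± 0.11), Col6a1 was lower at -0.81 ± 0.12 and Col18a1 at -0.35 ± 0.05. The 7 fibroblast markers summed to 5857 to 7606 in females against 4001 to 5218 in males, with no overlap, and their part in the matrix result was not tested. Of 24 cell division genes 10 were lower and 3 higher (median -0.47), or 16 and 1 at equal totals. The share called was 54.2%, beside 60.9% of all genes, and 5 genes had the same call in the inactive period. Mki67, a protein of dividing cells, was at 175, 222 and 405 in females against 88.5, 123 and 157 in males (log2 -1.03 ± 0.17). In the inactive period Mki67 was not called (0.29 ± 0.17, adjusted p = 0.144 by limma). Rrm1 was at -0.64 ± 0.08 and Mcm6 at 0.77 ± 0.08 in the active period. Of 19 injury genes 6 were lower and 3 higher (47.4% called, beside 60.9% of all genes). The higher ones were Il34, a macrophage growth factor (2.11 ± 0.13), Krt8 (0.85 ± 0.06) and Havcr1, the injury marker KIM-1, at 14.7, 27.7 and 34.03 in females against 31.995, 68.9 and 79.6 in males (log2 1.13 ± 0.26). Of 23 genes of protein folding in the endoplasmic reticulum 7 were lower and 2 higher, with 17 lower at equal totals and 14 after upper quartile scaling. The share lower was near the 30.3% of all genes, and 2 had the same call in the inactive period. Of 24 serpins, inhibitors of proteases, 6 were higher and 9 lower (62.5% called, near the 60.9% of all genes), or 6 and 14 at equal totals. Serpinf2, antiplasmin, was at 1249.8, 1961 and 2437 in females against 10406, 12553 and 15106 in males (log2 2.80 ± 0.14) and Serpina1b, an antitrypsin, at 3.86 ± 0.27.

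Markers of kidney cell types were set beside these lists. All 9 podocyte markers were lower in males (median -0.79), among them Nphs1 of the filtration slit. Nphs1 was at 853, 966 and 1075 in females and 388, 577 and 609 in males (log2 -0.86 ± 0.10), and the summed markers were at 18619 to 20311 in females against 10072 to 11894 in males, with none at 0. Of 10 endothelial markers 9 were lower (median -0.58), with Kdr at -0.77 ± 0.08 and Pecam1 at -0.60 ± 0.11, and their sums were 22525 to 28957 and 16835 to 19479. Markers of the thick ascending limb were lower in 5 of 7 cases and higher in 1 (sums 135868 to 163039 and 96685 to 116608), those of the distal convoluted tubule in 5 of 7 (sums 112040 to 136856 and 79936 to 87244), and those of intercalated cells in 6 of 8 (sums 17553 to 23864 and 13698 to 15367). The summed levels of these 5 cell types did not overlap between the sexes, and their part in the salt transport results was not tested.

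For the last segment of the proximal tubule 7 of 10 markers were higher and 2 lower in males (median 0.93), and their sums were 128070 to 161763 in females against 367422 to 449280 in males. They included Slc7a13 and Cyp7b1, which are also on the list of known male-biased genes, Acy3, an aminoacylase (6194, 9072 and 9962 in females against 52647, 67895 and 81437 in males, log2 2.99 ± 0.12), and Atp11a, a lipid flippase (2.04 ± 0.12). For the first segments 2 of 9 were higher and 6 lower, with a median of -0.29. Their sums on the authors' scaling pointed the other way, at 213649 to 264838 in females against 267445 to 287775 in males, with no overlap. That scaling gave males larger totals (mean 37.9 M against 31.3 M). The sums were not taken at equal totals, where the marker median was -0.57, so their direction holds for the authors' scaling only. The 7 principal cell markers tested split into 3 higher and 4 lower, or 0 and 4 at equal totals. Of 7 tested fat cell markers and 5 tested B cell markers none was called. Among adrenal markers Cyp11b1 and Cyp11b2 were at 0 in both sexes, and among neutrophil markers Ly6g and Mmp8 were at 0 in females. Nephron transcription factors were lower in 14 of 24 cases and higher in 8, or in 5 at equal totals, with Sim1 at -1.17 ± 0.09 and Irx1 at 1.279 ± 0.09.

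**Figure D4:**
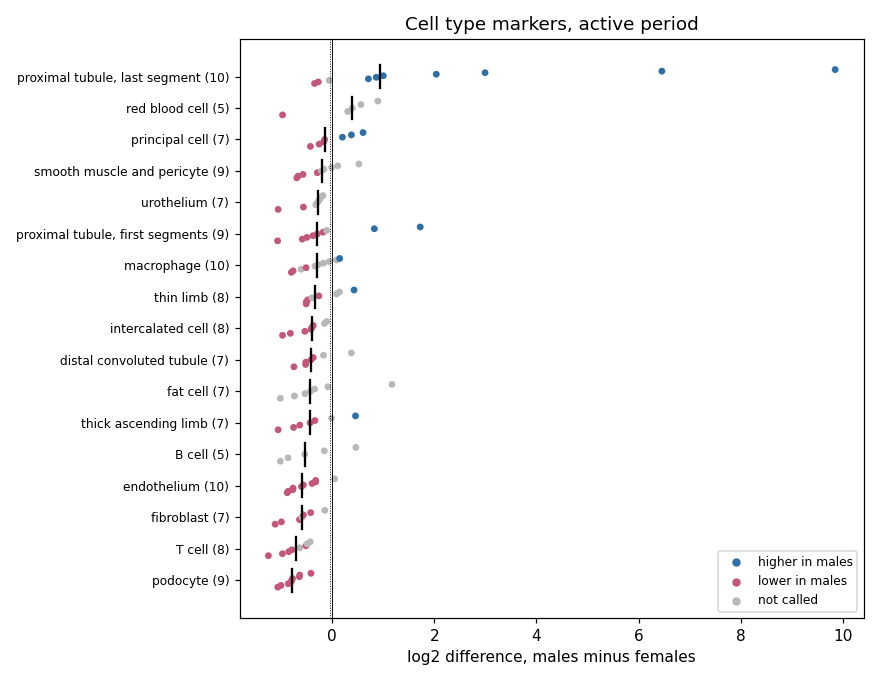
Each point is 1 marker gene, with its log2 difference between males and females on the axis, and bars give the median of each cell type, with the number of tested markers in brackets; the dotted line is the median of all genes (-0.04). All podocyte and fibroblast markers and 9 of 10 endothelial ones lie left of 0, and 4 markers of the last proximal segment lie beyond 2.

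The same contrast in the inactive period called 9250 genes (56.2%), 4685 higher (28.5%) and 4565 lower in males (27.7%), in 12 other libraries. Of the 5039 genes higher in active males 3958 (78.5%) were called higher in inactive males too and 17 were called lower, and of the 4995 lower ones 3487 (69.8%) were called lower and 27 higher. The male-higher calls shared make up 84.5% of those of the inactive period and the male-lower ones 76.4%. Among the 697 genes at least 2-fold higher in active males 614 were also called higher in inactive males, and among the 938 at least 2-fold lower 649 were called lower. Slco1a1, for example, had a log2 difference of 11.87 ± 0.44 in the inactive period, Ugt1a2 -11.00 ± 0.38 and Prlr -5.27 ± 0.37.

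The test of the difference between the periods called 458 genes (2.78%), with 3118 at an unadjusted p under 0.05. The sex difference was more towards males in the active period for 241 of them and less so for 217. These counts were 137 and 132 without replicate 4 of the active females, the former was 149 without replicate 5 and 456 without replicate 1 of the active males, and DESeq2 gave 507 and 401. Of the 458 genes, 41 were called in opposite directions in the 2 periods. Sucnr1, the receptor of succinate, had a log2 difference of 2.16 ± 0.08 in the active and 1.25 ± 0.08 in the inactive period, a difference of 0.91 ± 0.11 (adjusted p = 3.62e-05). Slc18a1, a vesicular monoamine carrier, had 1.83 ± 0.09 and 1.01 ± 0.09 (difference 0.81 ± 0.13, adjusted p = 0.00267), and Tmem25 had 1.48 ± 0.08 and 0.48 ± 0.08 (difference 0.996 ± 0.11, adjusted p = 2.37e-05). Qdpr, which recycles tetrahydrobiopterin, differed by 0.49 ± 0.08 between the periods. For A1cf, a factor of RNA editing and splicing, the direction changed, from -0.70 ± 0.11 to 0.25 ± 0.11 (difference -0.95 ± 0.15, adjusted p = 0.00267). Ipmk, an inositol phosphate kinase, was lower in active males (-0.57 ± 0.07) and not called in the inactive period (0.06 ± 0.07, adjusted p = 0.48), with a difference of -0.63 ± 0.10 (adjusted p = 0.00267). Cyp24a1 was lower in active males and higher in inactive ones (1.32 ± 0.27), a difference of -2.09 ± 0.38 (adjusted p = 0.00713).

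Genes of the circadian clock, the daily timer of cells, were read in both periods. Of 19 tested, 6 were higher and 4 lower in active males (52.6% called, beside 60.9% of all genes), turning to 3 and 9 at equal totals. In 7 of the 19 the difference between the periods was called, and 1 had the same call in both periods. Nr1d2, a repressor of the clock loop, was at 1216, 1390.2 and 1916 in females and 2024, 2286 and 2980.0 in males of the active period (log2 0.70 ± 0.11), against -0.24 ± 0.11 in the inactive period. Npas2, an activator, was at 289.6, 439 and 546 in females against 147, 235 and 332 in males (log2 -0.88 ± 0.21), against 0.57 ± 0.21. Dbp, an output factor, differed by 0.98 ± 0.22 against -0.34 ± 0.22, and Tef, of the same family, by 0.59 ± 0.09 against -0.04 ± 0.09. Hlf, the other member of that family, was called at 0.27 ± 0.06 and was at -0.0067 at equal totals.

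**Figure D5:**
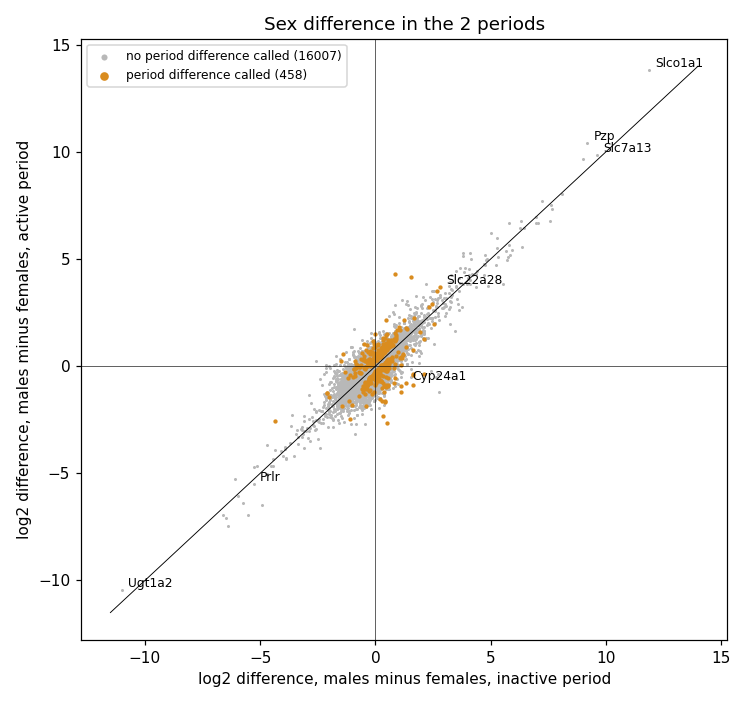
Each point is 1 gene, with the log2 difference between males and females in the inactive period on the horizontal and in the active period on the vertical axis; the diagonal marks equal differences. The 458 genes with a called difference between the periods lie off the diagonal, mostly near the centre, while Slco1a1, Pzp, Slc7a13 and Ugt1a2 lie far out on the same side in both periods.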

How the data were processed

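The deposited table holds, per the labels and its values, a signal per gene and library: gene counts that the authors divided by 1 size factor per library. The submitters' processing notes list, without order, DESeq2 1.28.1, featureCounts, Subread 2.0.6, Trim Galore 0.6.10 and GRCm39, and the sources used here give no strand, annotation release or aligner settings. Reads were recovered by dividing by the step between a library's values, and 100% of values were whole within 0.05. Of recovered counts from 1 to 20, 70.9% to 75.8% were even, so reads may not be independent, and counting intervals and floors cover counting error only. Counting error is largest near the filter of 10.

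All 17333 genes with a mean of at least 10 were fitted together in limma 3.58.1 (R 4.3.3) on log2(value + 1), as 4 group means over 24 libraries with 20 residual degrees of freedom and a trended, robust variance prior. The fold is therefore understated for low genes. P-values were adjusted per contrast over all 17333 genes by Benjamini and Hochberg, and genes under 0.05 were called. Symbols, biotypes and chromosomes came from an older build, GRCm38, so no gene coordinates are given, and promoters are from RefSeq on GRCm38.p6, with the first one taken where a gene had several (2362 genes). The method was tested on simulated data in which few genes were changed. These data used the size factors of the real libraries, so the choice of scaling was not tested.

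The genes, the 50 gene lists and the 20 marker lists were chosen with earlier results of these data known. Named were the 10 largest rises and falls among called autosomal genes that averaged 50 or more in the higher sex, without overlap or model identifier, the 5 largest rises and falls in counts, up to 3 called genes of smallest p per list, all hormone receptors, and 6 genes of the difference between periods. A further 38 genes were chosen after their values were seen: Bcl6, Cish, Socs2, Cyp4a12a, Cyp4a14, Cyp2b10, Srd5a2, Hsd17b2, Hsd11b1, Slc22a6, Slc22a2, Slc22a12, Ugt1a1, Abcb1b, Sgk1, Ren1, Agt, Aqp2, Umod, Slc22a7, Akr1c18, Nphs1, Kdr, Pecam1, Pdgfra, Npas2, Dbp, Cyp24a1, Lrp2, Cubn, Adh1, Acy3, Gpx1, Gpx4, Havcr1, Uqcrq, Atp11a and C3. The same holds for Socs3, Mylpf, Stat3, Stat5a and Stat5b and for the genes of neighbouring runs. Some genes that these rules would name are not reported here. Alternatives were pseudocounts of 0.5 and 5, no filter, 3 other scalings (TMM, upper quartile, equal totals), a fit of the 2 active groups alone, weights per library, a plain variance prior, each of the 12 active-period libraries left out, a block for the title number, and count tests on the recovered reads with DESeq2 1.42.0 and edgeR 4.0.16.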

Additional observations from a re-analysis of the deposited data

Results flagged for a closer look

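For the genes named, 19 of 430 groups had 1 library far from the other 5, by a criterion that chance meets in about 1 of 20 groups. This is no larger a share than chance gives, so no single value below is read as more than that. Among active females the flagged values were Cyp7b1 at 74.6 in replicate 3, Lnpep at 3672 in replicate 5 and Slc7a13 at 15.6 in replicate 2, each the lowest of its group. The highest of the females were Casr at 1068 in replicate 6, Mpped1 at 1.96 in replicate 1, Mrpl2 at 1037 in replicate 3, and Slc18a1 at 4386 and Slc27a2 at 123074 in replicate 2. Among active males the lowest were Akr1c18 at 887 and Slc22a30 at 12968 in replicate 1, Aqp2 at 3009 in replicate 3, and Rxra at 3126 and Ugt1a1 at 0 in replicate 6. The highest males were Cish at 992 and Tmprss6 at 2.27 in replicate 5, Mme at 6811 in replicate 4, Nlrc5 at 250.1 in replicate 2, Pecam1 at 2242 in replicate 1 and Slc4a9 at 2864 in replicate 6.

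For some named genes the sex difference itself differed between the periods at an adjusted p under 0.05 by limma. The log2 difference was more towards males in the active period for Adh1 by 0.45, Dbp by 1.32, Gstp1 by 0.47, Hsd17b11 by 0.43, Krt8 by 0.31, Ndufc2 by 0.29, Nr1d2 by 0.93, Oaz1 by 0.34, Qdpr by 0.49, Slc18a1 by 0.81, Slc22a28 by 0.89, Slc25a1 by 0.39, Slc34a1 by 0.35, Slc9a3r1 by 0.31, Sucnr1 by 0.91, Tef by 0.63 and Tmem25 by 0.996. It was less towards males for A1cf (-0.95), Atp6v0d2 (-0.39), Cfi (-0.89), Cyp24a1 (-2.09), Ipmk (-0.63), Mki67 (-1.32), Npas2 (-1.45) and Slc12a1 (-0.31).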

How the results depend on the processing

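The counts of genes called higher and lower in active males stayed within 1.5 times of 5039 and 4995 under every alternative but equal totals, with 5071 and 4892 by edgeR and 5101 and 5054 by DESeq2. Leaving out 1 active-period library gave 4842 to 5049 higher and 4703 to 4967 lower genes, and 649 to 730 and 856 to 1080 at 2-fold or more. Equal totals gave 2552 higher and 8377 lower genes, 425 and 1996 at 2-fold or more, and 1985 and 8609 in the inactive period, where the scaling itself moved the median of all genes by -0.27. It also turned Hlf to -0.0067 and Thrb to -0.11.

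The 241 and 217 genes of the difference between periods were less stable, and the cause was not tested. They became 131 and 111 with no filter, 146 and 138 with a plain variance prior, and 507 and 401 by DESeq2. Leaving out 1 active-period library gave 137 to 456 and 132 to 300, with 137 and 132 without replicate 4 of the active females, 149 more male without replicate 5 of the active males and 456 without their replicate 1.

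Numbers in the titles do not pair libraries by any label. Same-numbered libraries of the active period correlated at -0.07 to 0.07, and 2 of 6 pairs matched best with their own number. With the number as a replicate block 4940 genes were higher and 4891 lower, 302 and 212 in the difference between periods, and of the 212 called genes that were named Thrb alone was lost.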

Other observations

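Some genes with large sex differences lie side by side on a chromosome. In the order of the reference annotation, 16 runs of at least 3 tested neighbours were all more than 2-fold higher in males (56 genes, the longest run of 5), and 19 runs were more than 2-fold lower (61 genes, the longest of 4). The male-higher runs included the antitrypsin genes Serpina1b, Serpina1d, Serpina1a and Serpina1c on chromosome 12 (log2 1.35 to 3.86), the alcohol dehydrogenases Adh7 and Adh1 on chromosome 3 (the run at 1.22 to 4.99), Ugt2b5, Ugt2b37 and Ugt2a3 on chromosome 5 (1.01 to 7.72), the acetyltransferases Nat8f6, Nat8f5 and Nat8 on chromosome 6 (1.55 to 3.76) and Ces1f and Ces1g on chromosome 8 (3.18 to 3.68). The male-lower runs included Ugt1a6a, Ugt1a2 and Ugt1a1 on chromosome 1 (-10.46 to -1.23), Gsta4, Gsta1 and Gsta2 on chromosome 9 (-2.56 to -1.43), and Gbp5, Gbp7 and Gbp3 on chromosome 3 (-2.55 to -1.13). Many of these neighbours are copies of one another, and their counts depend on how reads that fit more than 1 copy were assigned, which no label states. The runs were chosen from this contrast and carry no test.

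Among non-coding genes more were lower than higher in males on the authors' scaling. These counts were not taken at equal totals, where 2552 of all genes were higher and 8377 lower in males. Of 543 long intergenic RNA genes 86 were higher and 169 lower in males (47.0% called), and of 604 antisense genes 88 and 160 (41.1%), beside 4643 and 4294 of 13879 protein-coding genes (64.4%). The share called grows with level, as given above, and these shares were not compared at equal level. The strand setting of the counting is not stated, so reads of an antisense gene and of its partner cannot be told apart. Among the autosomes, the share of genes called went from 55.3% on chromosome 12 to 63.8% on chromosome 13.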
